A study of Homo sapiens with 18 samples.

Results

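The heat shock proteins of the HSPA, HSPB, HSPD, HSPE, HSPH and HSP90 families and the J-domain proteins of the DNAJA, DNAJB and DNAJC families were followed through 6 treatments of SJSA-1 cells. Members were taken by gene symbol, together with the regulators HSF1 and HSF2, the cochaperone BAG3 and the collagen chaperone SERPINH1, and without HSPG2, HSPBAP1 and HSPBP1, which share only the letters. This gave 90 of the 23368 gene rows in the count tables. SJSA-1 is an osteosarcoma line with amplified MDM2 and CDK4, and RNA was sequenced from 18 libraries, 3 for each group. The groups were DMSO as the control, Nutlin (an MDM2 antagonist, 20 µM for 6 h), PD24 (the CDK4/6 inhibitor PD0332991, also called Palbociclib, at 10 µM for 24 h and then removed for the rest of 30 h), PD30 (the same drug for all 30 h), and Nutlin combined with either schedule, called N+PD24 and N+PD30. In the combinations Nutlin was present for the last 6 h, so N+PD24 cells met Nutlin after the CDK4/6 inhibitor had been removed and N+PD30 cells met it while the inhibitor was still there. The labels give 1 Nutlin dose for all samples, whereas the treatment scheme of the study also names a lower dose, so the dose is stated here only as labelled. All groups were 1 cell line, and the study calls the replicates biological, but the labels do not say that they came from separate cultures, so the p-values measure the spread between these libraries.

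HSP70 proteins bind unfolded stretches of other proteins and release them in a cycle of ATP hydrolysis. J-domain proteins bring substrates to HSP70 and start hydrolysis, HSP110 proteins and BAG proteins exchange the nucleotide, and HSP90 finishes the folding of kinases, steroid receptors and other signalling proteins. Under proteotoxic stress the transcription factor HSF1 is freed from chaperones and binds heat shock elements, repeats of nGAAn in alternating direction, and the genes of the inducible cytosolic chaperones are then transcribed. Chaperones of the endoplasmic reticulum (ER) answer instead to the unfolded protein response through ER stress elements, and mitochondria have their own HSP70, HSP60 and HSP10.

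The members were sorted by role into 12 stress-inducible cytosolic, 17 constitutive cytosolic, 13 ER and 8 mitochondrial chaperones, the 2 HSF regulators, 7 pseudogene rows, 5 antisense or readthrough rows and 26 others. HSPA7 and DNAJB3, also annotated as pseudogenes, were kept by their family names in the inducible class and among the others. The constitutive class is broader than its name, as it holds DNAJC9, which handles histones, and DNAJC5, a protein of secretory vesicles. Library totals ranged from 12704845 counts in N+PD30 replicate 1 to 40231041 in PD24 replicate 3. In all, 72 members passed the filter on low values in at least 1 comparison, and 18 passed in none. Of these 18, DNAJA1P5, HSPE1-MOB4 and DNAJC25-GNG10 had no count in any library, and the others, among them HSPA7, HSPB2, HSPB6, HSPB7, HSPB9, DNAJB3, DNAJB7, DNAJB8, DNAJB13 and DNAJC5B, reached at most 12 counts in a library. The bone and matrix genes SPARC (1398 to 2904 CPM, counts scaled to 1000000 per library), COL1A1 (1122 to 3697) and RUNX2 (18.2 to 34.5) were found in every library, while CD3E, CDH5 and KRT5, which mark T cells, endothelium and basal epithelium, stayed at or below 0.123 CPM. PECAM1, EPCAM and CDH1, further endothelial and epithelial markers, ranged up to 2.36, 0.852 and 1.65 CPM. The monocyte marker CD14 ranged from 2.49 to 15.0 CPM.

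Promoters of 72 members were matched in RefSeq, as the 250 bases before and 50 bases after the start on GRCh38.p14. Letter patterns were searched on both strands. The 3-unit heat shock element (GAA, 2 bases of any kind, TTC, 2 bases, GAA) was present in 133 of all 27305 promoters (0.487%), and in the promoters of HSPA6, DNAJA1, HSPA8, DNAJB6 and SERPINH1 among the members. By class these were 2 of 11 inducible, 2 of 16 constitutive and 1 of 12 ER promoters, and none of 8 mitochondrial ones. HSPA6, HSPA8 and DNAJA1 are shown because their transcripts were lower in PD30 than in PD24 under every setting tried. SERPINH1 was lower too, a call lost without single libraries. HSPA1A, HSPA1B, HSP90AA1, HSPB1, DNAJB1 and BAG3 were also lower in PD30 than in PD24, and their promoters had no match to this element. DNAJB6 went the other way, with 218, 216 and 197 CPM in PD24 and 250, 259 and 281 in PD30. Its rise did not pass in the main test but did with the replicate block (edgeR's quasi-likelihood test, log2 fold change 0.28, adjusted p = 0.0238). The capitals mark the element.
HSPA6 (chr1:161524290-161524589, + strand): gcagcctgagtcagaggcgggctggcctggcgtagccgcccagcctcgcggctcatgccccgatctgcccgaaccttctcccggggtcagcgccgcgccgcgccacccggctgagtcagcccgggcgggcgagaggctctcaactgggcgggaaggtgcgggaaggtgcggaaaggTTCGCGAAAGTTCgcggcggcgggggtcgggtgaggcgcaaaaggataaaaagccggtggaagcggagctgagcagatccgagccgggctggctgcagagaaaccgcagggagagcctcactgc
HSPA8 (chr11:123062087-123062386, - strand): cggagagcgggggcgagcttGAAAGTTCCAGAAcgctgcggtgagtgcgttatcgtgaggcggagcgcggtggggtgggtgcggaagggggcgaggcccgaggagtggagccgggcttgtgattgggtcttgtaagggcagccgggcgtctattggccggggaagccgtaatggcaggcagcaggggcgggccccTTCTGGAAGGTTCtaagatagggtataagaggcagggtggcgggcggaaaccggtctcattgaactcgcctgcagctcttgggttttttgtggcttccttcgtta
DNAJA1 (chr9:33025023-33025322, + strand): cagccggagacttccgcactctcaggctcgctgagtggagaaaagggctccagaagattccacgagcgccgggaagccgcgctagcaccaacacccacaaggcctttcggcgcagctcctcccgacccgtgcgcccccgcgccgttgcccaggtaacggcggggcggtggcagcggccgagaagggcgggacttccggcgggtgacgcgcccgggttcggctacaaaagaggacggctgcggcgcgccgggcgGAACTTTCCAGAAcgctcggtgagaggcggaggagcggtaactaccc
The element lay 74 bases before the start in HSPA6, at 230 and 55 bases before it in HSPA8, and 3 bases after it in DNAJA1. A 2-unit pattern (GAA and TTC, or TTC and GAA, 2 bases apart) was frequent everywhere (13.7% of all promoters and 5 of 11 inducible ones). The ER stress element (CCAAT and CCACG, 9 bases apart) was found in 22 promoters (0.0806%), of which HSPA5 and HSP90B1 are members, shown here because they are the most abundant ER chaperones per kilobase, with the element in capitals.
HSPA5 (chr9:125241294-125241593, - strand): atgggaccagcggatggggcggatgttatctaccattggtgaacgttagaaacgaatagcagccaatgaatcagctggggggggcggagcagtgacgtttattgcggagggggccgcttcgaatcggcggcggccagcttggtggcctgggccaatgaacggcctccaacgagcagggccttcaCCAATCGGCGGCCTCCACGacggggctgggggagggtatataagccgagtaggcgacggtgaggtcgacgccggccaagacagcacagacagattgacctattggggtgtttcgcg
HSP90B1 (chr12:103930160-103930459, + strand): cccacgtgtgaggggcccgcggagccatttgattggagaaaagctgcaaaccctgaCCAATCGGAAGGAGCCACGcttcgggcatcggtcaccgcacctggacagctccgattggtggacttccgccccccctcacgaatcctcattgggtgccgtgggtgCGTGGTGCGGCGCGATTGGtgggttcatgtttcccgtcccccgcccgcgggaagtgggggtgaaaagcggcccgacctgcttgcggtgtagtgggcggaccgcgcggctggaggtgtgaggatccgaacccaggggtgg
The last pattern was an E2F-type site, searched as TTTCCCGC, TTTGGCGC, TTTCGCGC or TTTGCCGC, which 908 promoters held (3.33%). Of the 72 member promoters, those of DNAJC9 and DNAJC5G held it. DNAJC9, the member with the largest fall in PD24 and in PD30 against DMSO, is shown with its match 15 bases before the start in capitals.
DNAJC9 (chr10:73247206-73247505, - strand): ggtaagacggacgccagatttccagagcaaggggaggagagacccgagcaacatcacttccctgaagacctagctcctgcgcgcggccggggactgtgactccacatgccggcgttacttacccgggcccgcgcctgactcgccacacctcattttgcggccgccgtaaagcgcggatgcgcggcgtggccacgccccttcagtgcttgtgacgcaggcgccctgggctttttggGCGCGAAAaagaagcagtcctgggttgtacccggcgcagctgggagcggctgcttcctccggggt
A match describes letters in this window, and binding of a factor was not measured.

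Per kilobase of transcript, HSPA8 was the most abundant member in DMSO at 1148 ± 50.0 CPM per kb (mean ± SD, n = 3), followed by HSP90AB1 at 821 ± 3.56, HSP90B1 at 572 ± 15.1, HSP90AA1 at 516 ± 21.7 and HSPD1 at 391.7 ± 20.2. No libraries overlapped between these neighbours. HSPA5 (281 ± 15.0), HSPB1 (226 ± 48.0) and HSPA9 (183 ± 19.3) came next, and HSPB1 overlapped with both of these neighbours. DNAJB1 (129.6 ± 5.67) and DNAJA1 (128 ± 5.10) also overlapped. HSPA8 and HSP90AB1 held the first and second rank in all 6 groups.

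Of the members that passed the filter in a comparison, calls were made at a Benjamini-Hochberg adjusted p under 0.05 over all genes tested, with edgeR's quasi-likelihood test, or with limma on log2(CPM + 1) for N+PD24, a scale that understates changes of low genes such as HSPA6. In Nutlin against DMSO, which asks what MDM2 inhibition does alone, 27 of 70 members rose and 16 fell, where 26.6% and 28.0% of all 15766 genes tested were called higher and lower. In PD24 against DMSO 14 of 70 rose and 11 fell (17.5% and 20.8% of all genes), and in PD30 against DMSO 14 of 71 rose and 18 fell (22.9% and 25.4%). In PD30 against PD24, which asks what 6 h without the inhibitor changed, 9 of 72 were higher and 17 lower with the inhibitor kept (12.2% and 12.9% of all genes). In N+PD30 against Nutlin 17 of 70 rose and 28 fell (24.3% and 24.7%), and in N+PD24 against Nutlin 7 of 69 rose and 9 fell (17.6% and 17.8%). As shares of the whole list, 38.6% rose in Nutlin, 23.6% were lower in PD30 against PD24 and 40% fell in N+PD30, each above the background. In N+PD24 both shares lay below it (10.1% higher and 13.0% lower). Shares in PD24 (20% and 15.7%) and PD30 (19.7% and 25.4%) against DMSO were nearer to it. PD24 and PD30 share the DMSO libraries, N+PD24 and N+PD30 share the Nutlin libraries, and PD30 against PD24 reuses both sets of the single-drug comparisons, so these counts are given side by side only.

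Counting only changes over 1 on the log2 scale, 8 rose and 3 fell in Nutlin (12.4% and 8.42% of all genes), 5 and 5 in PD24 (4.61% and 7.96%) and 2 and 4 in PD30 (5.76% and 9.48%). By the same rule 3 were higher and 6 lower in PD30 against PD24 (3.42% and 4.07%), 4 and 10 in N+PD30 against Nutlin (8.43% and 13.9%), and 1 and 2 in N+PD24 against Nutlin (2.59% and 4.8%). Some of these members passed the low-value filter through their higher group alone. They were DNAJA4, HSPA1L and HSPA2 in Nutlin, HSP90AB4P and HSPA1L in PD24, and HSPA6 and HSPA12B in PD30. In PD30 against PD24 they were DNAJA4, HSPA1A and HSPA6, in N+PD30 against Nutlin HSPA1A and HSPB3, and in N+PD24 against Nutlin HSPB3.

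The replicate numbers paired the libraries in 2 comparisons. With the number as a block, PD30 against PD24 gave 14 members higher and 22 lower (19.7% and 20.6% of all genes), and N+PD24 against Nutlin gave 23 higher and 11 lower (27.7% and 26.9%). Of the calls, those that held under every alternative setting numbered 30 of 43 in Nutlin, 17 of 25 in PD24, 22 of 32 in PD30, 15 of 26 in PD30 against PD24, 27 of 45 in N+PD30 and 10 of 16 in N+PD24. In bulk RNA a lower CPM can mean fewer cells with the transcript or less of it per cell, which cannot be told apart.

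**Figure D1:**
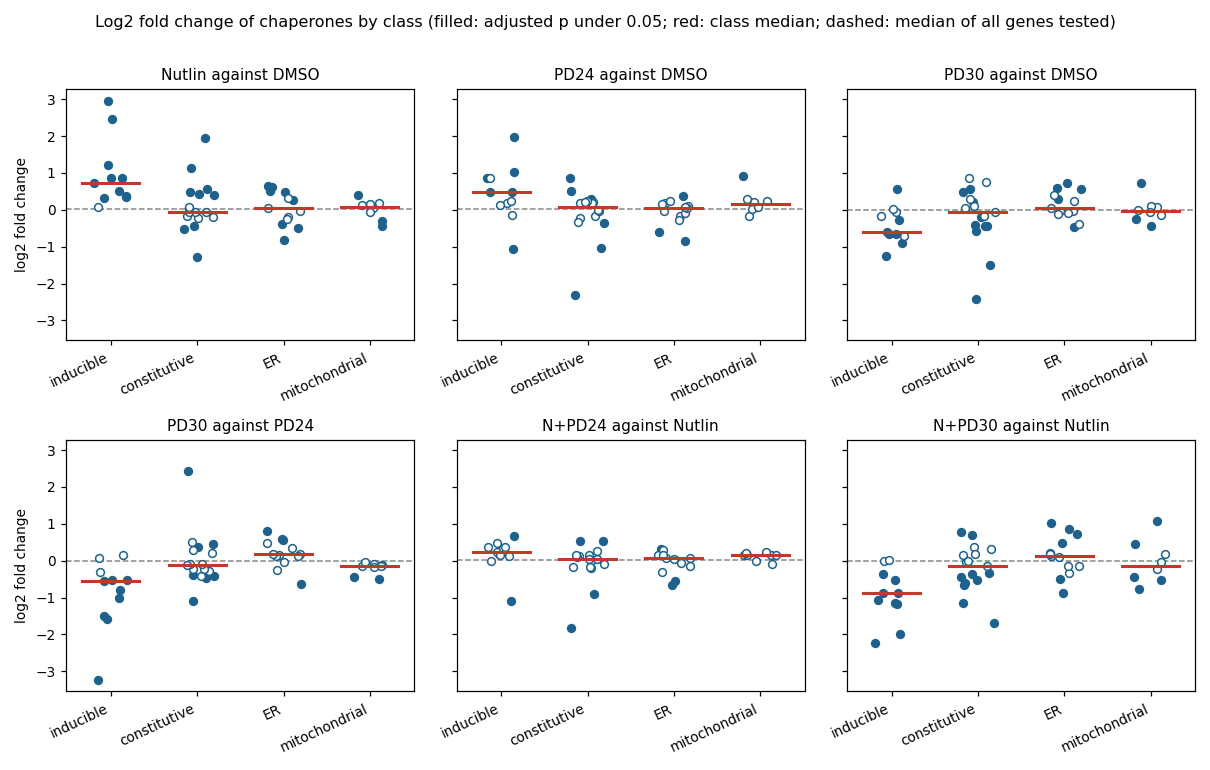
Log2 fold change (y axis) of each tested chaperone by class (x axis) in 6 comparisons, with filled points for an adjusted p under 0.05, a red line for the class median and a dashed line for the median of all genes tested. The inducible class lies above the dashed line in Nutlin (median 0.72) and below it in PD30 against PD24 (-0.55) and N+PD30 against Nutlin (-0.89), while ER and mitochondrial medians stay between -0.14 and 0.17 in these 3.

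The inducible cytosolic chaperones rose under Nutlin, and were lower with PD0332991 kept than with PD0332991 removed. Of 11 measured members, 10 rose in Nutlin against DMSO and none fell (90.9% higher, beside 26.6% of all genes). The median log2 fold change was 0.72 beside 0.03 for all genes. In PD24 against DMSO 5 rose and 1 fell (45.5% and 9.09%, beside 17.5% and 20.8%, median 0.47). In PD30 against DMSO, by contrast, 1 rose and 6 fell (9.09% and 54.5%, beside 22.9% and 25.4%, median -0.60). Kept against removed drug, 8 of 11 were lower and none higher (72.7% lower, beside 12.9%, median -0.55, all genes -0.02). In N+PD30 against Nutlin 9 of 11 fell and none rose (81.8% lower, beside 24.7%, median -0.89, all genes 0.00). In N+PD24 against Nutlin 1 rose and 1 fell (9.09% each, beside 17.6% and 17.8%, median 0.23). Summed over the class, CPM were 3141 ± 86.9 in DMSO, 3908 ± 319 in Nutlin, 3354 ± 179 in PD24, 2345 ± 58.1 in PD30, 3976 ± 48.4 in N+PD24 and 2294 ± 87.5 in N+PD30 (SD, n = 3). HSP90AA1 was the largest part of these sums, with 1591, 1729.9 and 1675 CPM in DMSO and 1053, 1027 and 1105 in PD30. The sums therefore follow that gene more than the class. HSPA6 and HSPA1A passed the low-value filter through their higher group alone in both PD30 comparisons, as HSPA1A did in N+PD30 against Nutlin. This way of passing favours members that differ, although HSPA1A was not called in PD30 against DMSO. Without the members that passed in this way 5 of 9 were lower in PD30 against DMSO, 6 of 9 in PD30 against PD24 and 8 of 10 in N+PD30 against Nutlin. In summed CPM, both groups with the drug kept lay below every DMSO library, and both groups with Nutlin and without the drug at the end lay above them. With the replicate block the N+PD24 count became 6 higher and 1 lower, where 27.7% and 26.9% of all genes were called. The added members were HSPA1B (adjusted p = 7.46e-05), DNAJB4 (adjusted p = 0.000791), DNAJA1 (adjusted p = 0.0191), HSPA1A (adjusted p = 0.0257) and HSPA6 (adjusted p = 0.0361), which did not pass in limma without the block. Without N+PD24 replicate 1 the N+PD24 count was 3 higher, and without DMSO replicate 3 the PD24 count fell to 3 higher. In Nutlin 8 rose under total counts. The Nutlin count was also 8 without DMSO replicate 1, 2 or 3 or Nutlin replicate 1 or 2. In PD30 against DMSO 5 fell by DESeq2 and without DMSO replicate 1 or PD30 replicate 1. In PD30 against PD24 7 were lower without PD24 replicate 1 or PD30 replicate 1 or 3. In N+PD30 against Nutlin 7 fell without Nutlin replicate 2, and 8 without N+PD30 replicate 2 or 3.

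**Figure D2:**
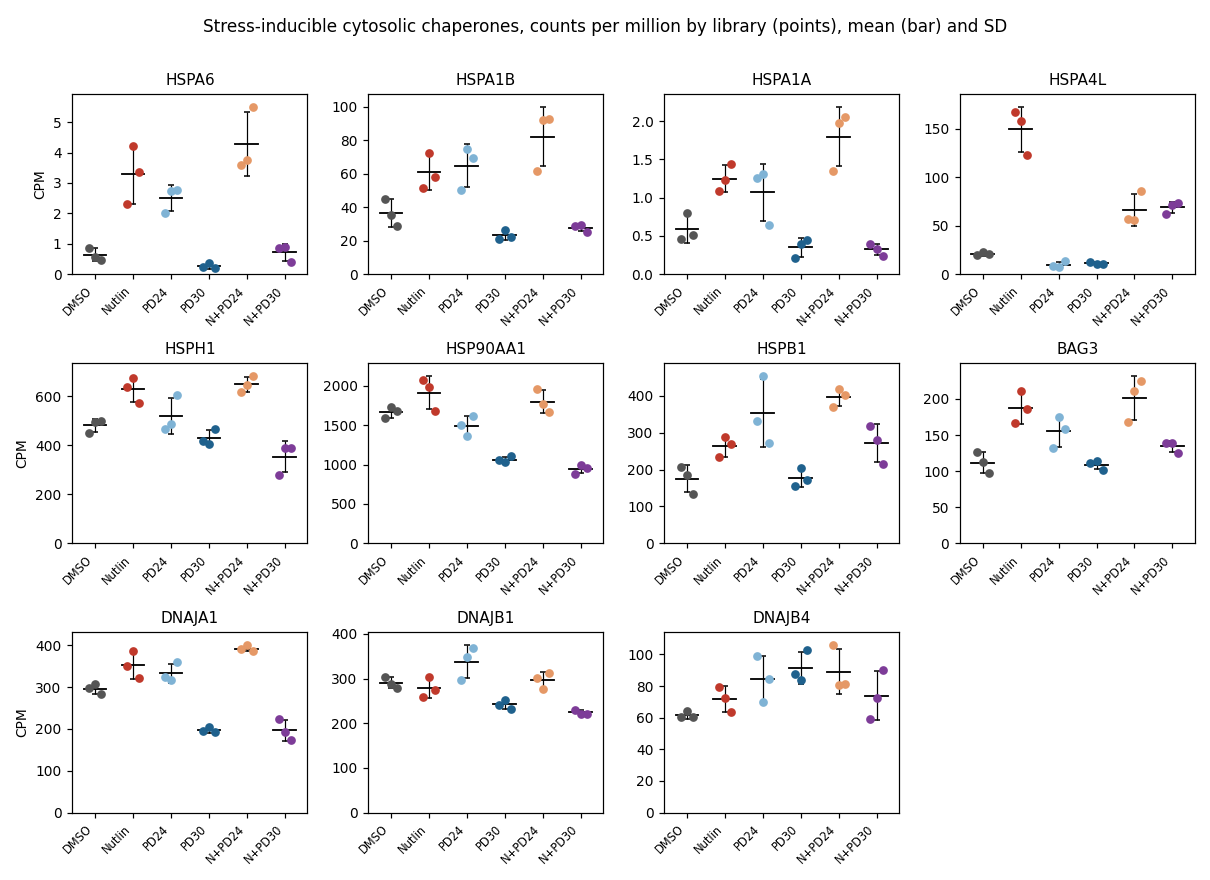
CPM (y axis, from 0) of 11 inducible cytosolic chaperones in the 18 libraries (points) of 6 groups (x axis), with the mean as a bar and the SD as a whisker. HSPA6, HSPA1B, HSPA1A, HSP90AA1, HSPB1, DNAJA1, DNAJB1 and BAG3 have all PD30 libraries below all PD24 libraries, and HSPA4L, HSPH1 and DNAJB4 do not.

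HSPA6, an HSP70 that is almost silent without stress, had the largest difference between the schedules of any member. Its libraries held 0.879, 0.555 and 0.485 CPM in DMSO, 2.29, 4.23 and 3.35 in Nutlin and 2.003, 2.74 and 2.76 in PD24. HSPA6 libraries held 0.241, 0.361 and 0.199 in PD30, 3.61, 3.76 and 5.49 in N+PD24 and 0.866, 0.907 and 0.387 in N+PD30. All Nutlin, PD24 and N+PD24 libraries lay above all DMSO libraries, all PD30 libraries lay below them, and N+PD30 overlapped with DMSO. HSPA6 rose in Nutlin (log2 fold change 2.47 ± 0.31, adjusted p = 0.000116) and in PD24 (log2 fold change 1.98 ± 0.28, adjusted p = 0.000684), where the error is the SE. With the drug kept it was lower than with the drug removed (log2 fold change -3.23 ± 0.30, adjusted p = 0.000329), and N+PD30 was lower than Nutlin (log2 fold change -2.22 ± 0.36, adjusted p = 0.000536). In PD30 against PD24 and in PD30 against DMSO, HSPA6 passed the low-value filter through its higher group alone, with 1 PD30 library past it. The p-values of these comparisons are therefore limited by how the gene entered the test. The fall in PD30 against DMSO (log2 fold change -1.26 ± 0.37, adjusted p = 0.0185) was lost without DMSO replicate 1 or PD30 replicate 1 or 3 (adjusted p = 0.0559 to 0.0819) and by DESeq2 (adjusted p = 0.0548). These levels rest on 7 to 152 counts per library. Its near copy HSPA7, which is annotated as a pseudogene, had at most 2 counts.

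HSPA1A and HSPA1B encode the major inducible HSP70 from neighbouring, near-identical genes at chr6:31783320-31785723 and chr6:31795515-31798031 (GRCh37). The counting left few reads on HSPA1A (5 to 73 per library) and 369 to 3396 on HSPA1B, and the split between them is uncertain. A long noncoding RNA on the same strand shares 920 exon bases with HSPA1B. HSPA1B stood at 45.2, 35.7 and 28.7 CPM in DMSO, 51.7, 72.7 and 58.1 in Nutlin and 50.6, 75.2 and 69.2 in PD24. HSPA1B libraries held 21.2, 26.6 and 22.4 in PD30, 61.8, 91.9 and 92.8 in N+PD24 and 29.0, 29.2 and 25.4 in N+PD30. All Nutlin, PD24 and N+PD24 libraries lay above all DMSO libraries, and all PD30 libraries lay below them. It rose in Nutlin (log2 fold change 0.86 ± 0.18, adjusted p = 0.00245) and in PD24 (log2 fold change 0.86 ± 0.20, adjusted p = 0.00855), fell in PD30 (log2 fold change -0.66 ± 0.17, adjusted p = 0.00959), and was lower in PD30 than in PD24 (log2 fold change -1.51 ± 0.17, adjusted p = 0.000611) and in N+PD30 than in Nutlin (log2 fold change -1.17 ± 0.16, adjusted p = 0.000186). In N+PD24 against Nutlin the change was 0.49 (adjusted p = 0.0537 with limma, and 7.46e-05 with the replicate block). HSPA1A rose in Nutlin by 1.21 (adjusted p = 0.00478) and in N+PD30 it fell below Nutlin (log2 fold change -1.998 ± 0.33, adjusted p = 0.000597). In PD30 against PD24 it fell (log2 fold change -1.58 ± 0.40, adjusted p = 0.0187), a call lost without PD24 replicate 1 or PD30 replicate 1 (adjusted p = 0.0606 to 0.0677). In PD24 and PD30 against DMSO HSPA1A had values of 0.86 and -0.72 that did not pass. In N+PD30 against Nutlin, PD30 against PD24 and PD30 against DMSO, HSPA1A passed the low-value filter through its higher group alone.

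HSPA4L and HSPH1 are HSP110-type exchange factors for HSP70, and they behaved apart. HSPA4L had the largest rise of any member under Nutlin, from 19.5, 23.1 and 20.7 CPM in DMSO to 167, 158 and 123 (log2 fold change 2.95 ± 0.14, adjusted p = 7.79e-07). PD0332991 lowered it under either schedule, to 8.32, 7.88 and 13.6 in PD24 and 12.5, 11.1 and 10.6 in PD30 (log2 fold change -1.06 ± 0.20, adjusted p = 0.00323 and log2 fold change -0.91 ± 0.12, adjusted p = 0.00024), with a difference between the schedules of 0.16 (adjusted p = 0.615). It was also lower in both combinations than in Nutlin, at 57.0, 56.1 and 85.5 in N+PD24 (log2 fold change -1.11 ± 0.17, adjusted p = 0.0011) and 62.5, 71.7 and 73.1 in N+PD30 (log2 fold change -1.16 ± 0.15, adjusted p = 0.000113). A long noncoding RNA on the opposite strand shares 536 exon bases with HSPA4L. HSPH1 stood at 451, 494 and 499.9 CPM in DMSO, 638, 673 and 573 in Nutlin, 619, 648 and 682 in N+PD24 and 279.7, 391 and 389.9 in N+PD30. It rose in Nutlin (log2 fold change 0.51 ± 0.10, adjusted p = 0.00184) and fell against Nutlin in N+PD30 (log2 fold change -0.87 ± 0.15, adjusted p = 0.000701), and every N+PD30 library lay below every DMSO library. PD0332991 alone gave 0.13 in PD24, -0.18 in PD30 and -0.31 between them, none past the test (adjusted p = 0.367, 0.0956 and 0.0773). With the replicate block the last of these passed (adjusted p = 0.00965).

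HSP90AA1, the inducible cytosolic HSP90, stood at 1591, 1729.9 and 1675 CPM in DMSO, 2067, 1988 and 1676 in Nutlin and 1495, 1367 and 1619 in PD24. HSP90AA1 libraries held 1053, 1027 and 1105 in PD30, 1953, 1764 and 1670.3 in N+PD24 and 882, 992 and 951 in N+PD30. The PD30 and N+PD30 libraries lay below every other library. It fell in PD30 against DMSO (log2 fold change -0.67 ± 0.07, adjusted p = 5.71e-05), in PD30 against PD24 (log2 fold change -0.53 ± 0.09, adjusted p = 0.00324) and against Nutlin in N+PD30 (log2 fold change -1.06 ± 0.13, adjusted p = 0.000109). Its rise in Nutlin was small (log2 fold change 0.33 ± 0.11, adjusted p = 0.0276) and was lost without DMSO replicate 1, 2 or 3 or Nutlin replicate 1 or 2 (adjusted p = 0.0602 to 0.101) and with scaling by total counts (adjusted p = 0.0999). HSPB1, the small heat shock protein HSP27, held 206, 185 and 134 CPM in DMSO, 233, 289 and 269 in Nutlin and 332, 452 and 272 in PD24. HSPB1 libraries held 157, 205 and 173 in PD30, 371, 419 and 401 in N+PD24 and 317, 281 and 216 in N+PD30. All N+PD24 libraries lay above all DMSO and Nutlin libraries. HSPB1 rose in Nutlin (log2 fold change 0.72 ± 0.15, adjusted p = 0.00299), in PD24 (log2 fold change 1.04 ± 0.22, adjusted p = 0.00552) and further in N+PD24 than in Nutlin (log2 fold change 0.66 ± 0.11, adjusted p = 0.00177), while PD30 against DMSO and N+PD30 against Nutlin both gave 0.01 (adjusted p = 0.971 and 0.973). It was the 1 inducible member that rose in N+PD24 against Nutlin, and it was lower in PD30 than in PD24 (log2 fold change -1.02 ± 0.19, adjusted p = 0.00572).

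BAG3, the cochaperone that links HSP70 to selective autophagy, rose in Nutlin (log2 fold change 0.87 ± 0.13, adjusted p = 0.000278), from 127, 112 and 96.98 to 166, 210.5 and 186 CPM. N+PD24 libraries stood at 168, 211 and 225 and N+PD30 libraries at 138, 139 and 125. The fall against Nutlin in N+PD30 (log2 fold change -0.52 ± 0.13, adjusted p = 0.00808) was lost without Nutlin replicate 2 (adjusted p = 0.0509). The rise in PD24 (log2 fold change 0.50 ± 0.14, adjusted p = 0.0213) was lost without DMSO replicate 2 or 3 or PD24 replicate 2 (adjusted p = 0.0685 to 0.0757). PD30 was lower than PD24 (log2 fold change -0.55 ± 0.13, adjusted p = 0.0136), a call lost without PD30 replicate 3 (adjusted p = 0.0545).

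DNAJA1, a J-domain partner of cytosolic HSP70, held 297, 308 and 284 CPM in DMSO, 352, 387 and 321 in Nutlin and 323, 318 and 359.7 in PD24. DNAJA1 libraries held 194, 205 and 193 in PD30, 391.9, 399.6 and 386 in N+PD24 and 223, 192 and 174 in N+PD30. Every library with the drug kept lay below every other library. DNAJA1 rose in Nutlin (log2 fold change 0.38 ± 0.10, adjusted p = 0.00949) and fell in PD30 (log2 fold change -0.60 ± 0.07, adjusted p = 0.000148), in PD30 against PD24 (log2 fold change -0.79 ± 0.09, adjusted p = 0.000674) and against Nutlin in N+PD30 (log2 fold change -0.89 ± 0.15, adjusted p = 0.000651). DNAJB1, the J-protein most used by cytosolic HSP70, was the inducible member that did not pass in Nutlin (log2 fold change 0.07 ± 0.09, adjusted p = 0.576). It was at 297, 347 and 368 CPM in PD24 and 242, 253 and 232 in PD30 and was lower in the latter (log2 fold change -0.51 ± 0.11, adjusted p = 0.00914). Its fall against Nutlin in N+PD30 (log2 fold change -0.35 ± 0.12, adjusted p = 0.0319) was lost without Nutlin replicate 2 or N+PD30 replicate 2 or 3 (adjusted p = 0.0783 to 0.158). The TECR gene on the opposite strand shares 525 exon bases with DNAJB1. DNAJB4 rose in PD30 (log2 fold change 0.56 ± 0.09, adjusted p = 0.000921), from 60.2, 64.0 and 60.6 to 87.9, 83.8 and 103 CPM, with values of 0.08 in PD30 against PD24 and 0.989 as the adjusted p in N+PD30 against Nutlin. The rise in Nutlin (log2 fold change 0.35 ± 0.11, adjusted p = 0.0208) was lost without DMSO replicate 1, 2 or 3 or Nutlin replicate 1 or 2 (adjusted p = 0.0533 to 0.0644) and with scaling by total counts (adjusted p = 0.0889). That in PD24 (log2 fold change 0.47 ± 0.12, adjusted p = 0.0158) was lost without DMSO replicate 1 or 3 (adjusted p = 0.0504 to 0.0506).

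The constitutive cytosolic chaperones moved in both directions. Of 17 tested, 6 rose and 3 fell in Nutlin (35.3% and 17.6%, beside 26.6% and 28.0% of all genes, median -0.05). In PD30 against DMSO 3 rose and 7 fell (17.6% and 41.2%, beside 22.9% and 25.4%, median -0.05). The rises in Nutlin include DNAJA4 and HSPA2, which passed the low-value filter through their higher group alone. DNAJA4 did so as well in PD30 against PD24, where it was called higher. Under total counts 5 fell in Nutlin, and without DMSO replicate 3 or PD30 replicate 1 only 4 fell in PD30. In PD24 against DMSO 3 of 16 rose and 3 fell (18.8% each, beside 17.5% and 20.8%). In PD30 against PD24 3 of 17 were higher and 4 lower (17.6% and 23.5%, beside 12.2% and 12.9%). In that comparison 2 were lower without PD30 replicate 1 or 3, and 1 was higher without PD24 replicate 1 or 2 or PD30 replicate 1 or 3. In N+PD30 against Nutlin 2 rose and 8 fell (11.8% and 47.1%, beside 24.3% and 24.7%, median -0.16), and without Nutlin replicate 2 only 4 fell. Without N+PD30 replicate 2 or replicate 3, 5 fell. In N+PD24 against Nutlin 2 of 16 rose and 2 fell (12.5% each, beside 17.6% and 17.8%).

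HSPA8, the constitutive HSP70 known as HSC70, stood at 2537, 2729 and 2529.8 CPM in DMSO, 2556, 2593 and 2334 in Nutlin and 3606, 3440.3 and 3834 in PD24. HSPA8 libraries held 1818, 1892 and 1535 in PD30, 3712, 3439 and 3137 in N+PD24 and 2000.1, 1624 and 1392 in N+PD30. PD24 and N+PD24 libraries lay above all DMSO and Nutlin libraries, and PD30 and N+PD30 libraries lay below them. HSPA8 rose in PD24 (log2 fold change 0.50 ± 0.08, adjusted p = 0.00121), fell in PD30 (log2 fold change -0.59 ± 0.09, adjusted p = 0.000783) and was lower in PD30 than in PD24 (log2 fold change -1.09 ± 0.11, adjusted p = 0.000364). Nutlin alone gave 0.07 (adjusted p = 0.561), and N+PD30 fell against Nutlin (log2 fold change -0.61 ± 0.16, adjusted p = 0.0097). The rise in N+PD24 against Nutlin (log2 fold change 0.53 ± 0.13, adjusted p = 0.0128) was lost without N+PD24 replicate 2 (adjusted p = 0.0725) and without the filter on low values (adjusted p = 0.0838). A long noncoding RNA on the opposite strand shares 555 exon bases with HSPA8, and small nucleolar RNAs lie inside it.

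HSP90AB1, the constitutive HSP90, held 2088, 2106 and 2101 CPM in DMSO, 2542, 2657 and 2373 in Nutlin and 2225, 2353 and 2722 in PD24. HSP90AB1 libraries held 1906, 1847 and 1806 in PD30, 2566, 2538 and 2553 in N+PD24 and 1749.8, 1574 and 1591 in N+PD30. All libraries with the drug kept were below all DMSO libraries. It rose in Nutlin (log2 fold change 0.39 ± 0.09, adjusted p = 0.00462), was lower in PD30 than in PD24 (log2 fold change -0.43 ± 0.10, adjusted p = 0.0118) and fell against Nutlin in N+PD30 (log2 fold change -0.66 ± 0.13, adjusted p = 0.0016). The fall in PD30 against DMSO (log2 fold change -0.19 ± 0.07, adjusted p = 0.0342) was lost without DMSO replicate 1, 2 or 3 or PD30 replicate 1, 2 or 3 (adjusted p = 0.0528 to 0.106). The pseudogene row HSP90AB2P, which can share reads with HSP90AB1, rose in Nutlin (log2 fold change 1.37 ± 0.12, adjusted p = 1.34e-05) and fell against Nutlin in N+PD30 (log2 fold change -1.23 ± 0.14, adjusted p = 4.17e-05). It held 61.5, 63.1 and 83.0 CPM in DMSO and 166, 163 and 164 in Nutlin.

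DNAJB2 and DNAJC5 went up in the combination with the drug kept. DNAJB2, a J-protein that binds ubiquitin, was at 43.7, 43.2 and 42.0 CPM in DMSO, 56.5, 58.6 and 60.0 in Nutlin, 75.7, 76.8 and 88.4 in N+PD24 and 111, 108 and 90.9 in N+PD30. These 4 groups followed each other in this order without overlap. DNAJB2 rose in Nutlin (log2 fold change 0.57 ± 0.09, adjusted p = 0.000406), PD24 (log2 fold change 0.85 ± 0.12, adjusted p = 0.000694), PD30 (log2 fold change 0.57 ± 0.08, adjusted p = 0.000305), N+PD24 against Nutlin (log2 fold change 0.52 ± 0.10, adjusted p = 0.0029) and N+PD30 relative to Nutlin (log2 fold change 0.79 ± 0.13, adjusted p = 0.000615). DNAJC5, the cysteine string protein of secretory vesicles, stood at 105, 121 and 133 CPM in Nutlin and 195, 195 and 210.0 in N+PD30 (log2 fold change 0.70 ± 0.12, adjusted p = 0.000733), and no single drug changed it past the test (adjusted p = 0.599, 0.24 and 0.41 in Nutlin, PD24 and PD30 against DMSO).

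DNAJC9 and HSPA14 had the largest falls of the constitutive class. DNAJC9, a J-protein that handles histones, held 83.1, 82.7 and 98.04 CPM in DMSO, 32.7, 29.6 and 37.1 in Nutlin and 20.3, 16.1 and 16.4 in PD24. DNAJC9 libraries held 16.2, 14.2 and 19.6 in PD30, 8.12, 7.69 and 8.85 in N+PD24 and 14.6, 13.2 and 18.8 in N+PD30. Every treated library lay below every DMSO library. It fell in Nutlin (log2 fold change -1.28 ± 0.11, adjusted p = 1.17e-05), PD24 (log2 fold change -2.30 ± 0.13, adjusted p = 1.8e-06) and PD30 (log2 fold change -2.41 ± 0.13, adjusted p = 5.1e-07), and further in N+PD24 (log2 fold change -1.82 ± 0.12, adjusted p = 4.77e-06) and N+PD30 (log2 fold change -1.14 ± 0.15, adjusted p = 0.000178) against Nutlin. The 2 schedules did not differ past the test (log2 fold change -0.11 ± 0.16, adjusted p = 0.631). FAM149B1 on the opposite strand shares 1819 exon bases with DNAJC9. HSPA14, an HSP70 of the ribosome-associated complex, was at 24.8, 26.6 and 32.0 CPM in DMSO, 21.6, 22.4 and 23.1 in Nutlin and 14.9, 11.8 and 13.5 in PD24. HSPA14 libraries held 10.0, 9.62 and 9.99 in PD30, 11.4, 10.4 and 11.1 in N+PD24 and 5.19, 7.19 and 8.67 in N+PD30. All libraries that received PD0332991 lay below all DMSO and Nutlin libraries. HSPA14 fell in all 4 comparisons that added PD0332991, with log2 fold changes of -1.03 in PD24, -1.51 in PD30, -0.90 in N+PD24 and -1.70 in N+PD30 (adjusted p = 0.000555, 8.6e-06, 0.000398 and 2.75e-05). Nutlin alone gave -0.19 (adjusted p = 0.204). PD30 was lower than PD24 (log2 fold change -0.48 ± 0.13, adjusted p = 0.028), a call lost without PD24 replicate 1 or PD30 replicate 1, 2 or 3 (adjusted p = 0.07 to 0.101). MSANTD7 on the same strand shares 318 exon bases with HSPA14. HSPA4, the constitutive HSP110, rose in Nutlin (log2 fold change 0.43 ± 0.11, adjusted p = 0.00908), with 400.1, 443 and 425 CPM in DMSO and 512, 591 and 462 in Nutlin.

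**Figure D3:**
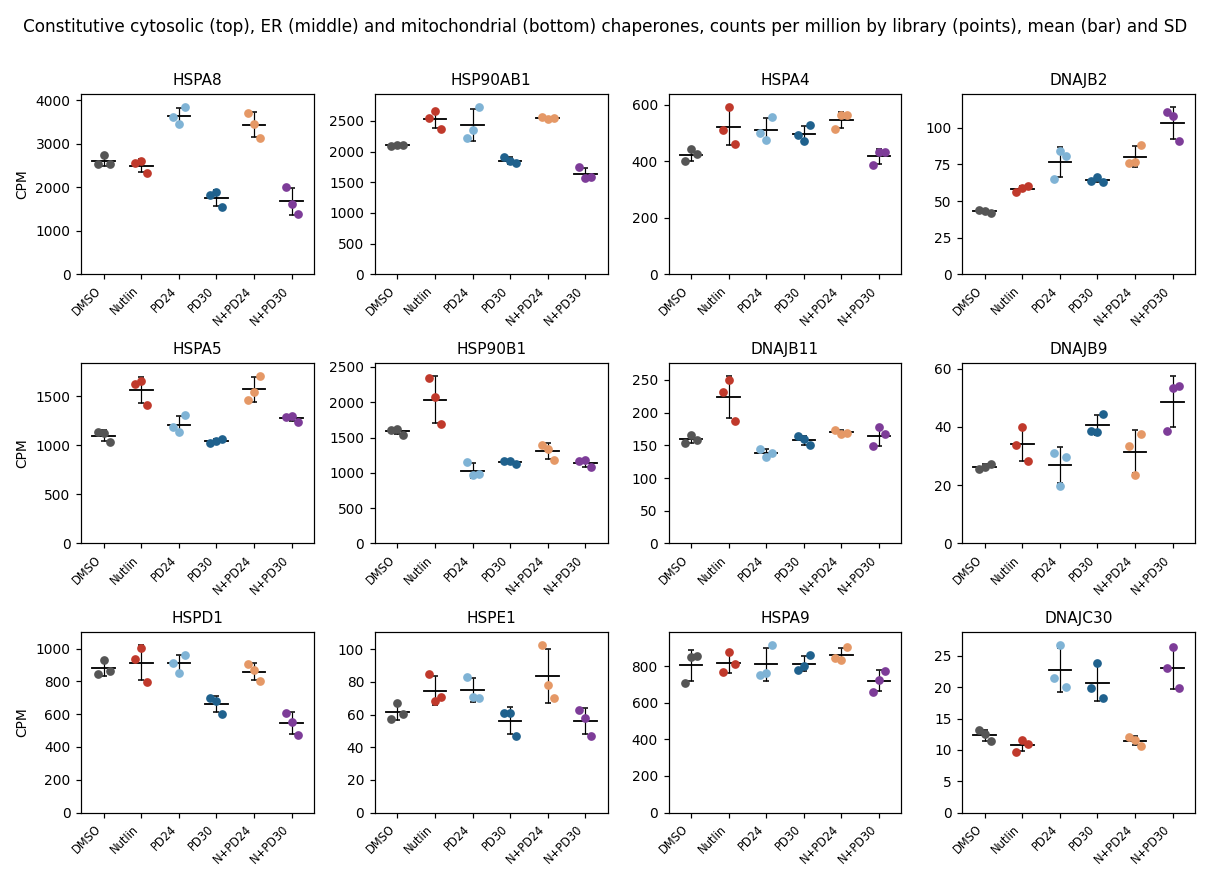
CPM (y axis, from 0) in 18 libraries (points) of 4 constitutive cytosolic (top row), 4 ER (middle row) and 4 mitochondrial (bottom row) chaperones by group (x axis), with the mean as a bar and the SD as a whisker. HSPA8 separates PD24 and N+PD24 from PD30 and N+PD30, HSPA5 is raised in Nutlin and N+PD24, and HSPA9 passes in no comparison.

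The ER chaperones moved in both directions. Of 13 tested, 5 rose and 3 fell in Nutlin (38.5% and 23.1%, beside 26.6% and 28.0% of all genes). In PD24 1 rose and 2 fell (7.69% and 15.4%, beside 17.5% and 20.8%), and in PD30 against DMSO 4 rose and 1 fell (30.8% and 7.69%, beside 22.9% and 25.4% of all genes). In PD30 against PD24 3 were higher and 1 lower (23.1% and 7.69%, beside 12.2% and 12.9%). With the replicate block 5 were higher and 2 lower there, where 19.7% and 20.6% of all genes were called. In N+PD30 against Nutlin 4 rose and 2 fell (30.8% and 15.4%, beside 24.3% and 24.7%). In N+PD24 against Nutlin 1 rose and 2 fell (7.69% and 15.4%, beside 17.6% and 17.8%). The medians were 0.05, 0.05, 0.05, 0.17, 0.13 and 0.08 in the same order. In Nutlin 4 rose and 5 fell when scaled by total counts, 4 and 4 without Nutlin replicate 1, and 3 and 3 without Nutlin replicate 2. In N+PD30 2 rose and 3 fell without Nutlin replicate 3.

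HSPA5, the ER HSP70 known as BiP, held 1140.1, 1129.5 and 1033 CPM in DMSO, 1626, 1655 and 1413 in Nutlin and 1189, 1138 and 1308 in PD24. HSPA5 libraries held 1022, 1045 and 1063 in PD30, 1459, 1550.0 and 1705 in N+PD24 and 1289, 1304 and 1243 in N+PD30. Every Nutlin library lay above every DMSO library (log2 fold change 0.64 ± 0.10, adjusted p = 0.00057), and N+PD30 lay between them. PD0332991 alone gave 0.16 in PD24 and -0.09 in PD30 (adjusted p = 0.166 and 0.322), and the schedules differed by -0.25 (adjusted p = 0.0611, and 0.0168 with the replicate block). N+PD30 against Nutlin came to log2 fold change -0.33 ± 0.13, adjusted p = 0.051, and N+PD24 against Nutlin to 0.08 (adjusted p = 0.639). HSP90B1, the ER HSP90 known as GRP94, rose in Nutlin too (log2 fold change 0.49 ± 0.13, adjusted p = 0.00875) but fell with PD0332991 under either schedule. It held 1609, 1619 and 1542 CPM in DMSO, 2346, 2074 and 1689 in Nutlin and 1148, 967 and 983 in PD24. HSP90B1 libraries held 1167, 1165 and 1132 in PD30, 1397, 1338 and 1183 in N+PD24 and 1165, 1185 and 1076 in N+PD30. All PD24 and PD30 libraries lay below all DMSO libraries (log2 fold change -0.60 ± 0.09, adjusted p = 0.00109 and log2 fold change -0.48 ± 0.07, adjusted p = 0.00036), and the schedules differed by 0.12 (adjusted p = 0.369). N+PD30 fell against Nutlin (log2 fold change -0.88 ± 0.15, adjusted p = 0.000854). The fall in N+PD24 (log2 fold change -0.56 ± 0.15, adjusted p = 0.0196) was lost without Nutlin replicate 1 or 2 or N+PD24 replicate 2 or 3 (adjusted p = 0.0595 to 0.0653). UQCC6 on the opposite strand shares 805 exon bases with HSP90B1.

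DNAJB11, an ER J-protein that works with BiP, rose in Nutlin (log2 fold change 0.62 ± 0.12, adjusted p = 0.00178), from 154, 165 and 158 to 232, 250.2 and 188 CPM. It was lower in N+PD30 (log2 fold change -0.48 ± 0.14, adjusted p = 0.0174), a call lost without Nutlin replicate 1 or 2 (adjusted p = 0.0518 to 0.0922). A protein-coding gene on the same strand shares 451 exon bases with DNAJB11. DNAJB9, the J-protein that represses IRE1, stood at 25.5, 26.3 and 27.3 CPM in DMSO, 31.1, 19.9 and 29.6 in PD24, 38.7, 38.3 and 44.4 in PD30 and 38.5, 53.4 and 53.8 in N+PD30. It rose in PD30 (log2 fold change 0.60 ± 0.09, adjusted p = 0.000634), where 6 inducible cytosolic members fell. It was also higher in PD30 than in PD24 (log2 fold change 0.56 ± 0.16, adjusted p = 0.0315), a call lost without PD24 replicate 2 or PD30 replicate 1, 2 or 3 (adjusted p = 0.0558 to 0.0995). Its rise against Nutlin in N+PD30 (log2 fold change 0.47 ± 0.17, adjusted p = 0.0408) was lost without Nutlin replicate 1 or 3 or N+PD30 replicate 2 or 3 (adjusted p = 0.0832 to 0.157). Its rise in Nutlin (log2 fold change 0.50 ± 0.14, adjusted p = 0.0127) was lost without Nutlin replicate 2 (adjusted p = 0.0541).

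HSPA13, a microsomal HSP70, fell in Nutlin (log2 fold change -0.38 ± 0.10, adjusted p = 0.00999) and PD24 (log2 fold change -0.84 ± 0.12, adjusted p = 0.000708), was higher in PD30 than in PD24 (log2 fold change 0.82 ± 0.14, adjusted p = 0.00344) and fell in N+PD24 against Nutlin (log2 fold change -0.65 ± 0.12, adjusted p = 0.00289). Its libraries held 126, 143 and 148 CPM in DMSO, 100.4, 102 and 91.6 in Nutlin and 79.2, 63.9 and 86.7 in PD24. HSPA13 libraries held 130.0, 121 and 164 in PD30, 58.3, 51.8 and 68.6 in N+PD24 and 71.9, 121 and 153 in N+PD30. DNAJB14 fell in Nutlin (log2 fold change -0.83 ± 0.11, adjusted p = 0.000171). The J-proteins DNAJC16, DNAJC18 and DNAJB14 were higher in N+PD30 than in Nutlin, by 0.85, 1.03 and 0.72 (adjusted p = 0.000433, 0.000116 and 0.0122), the last of which was lost without Nutlin replicate 3 (adjusted p = 0.052). DNAJC18 showed 22.6, 19.5 and 18.8 CPM in Nutlin, 30.7, 26.5 and 34.3 in PD24, 45.7, 47.5 and 46.9 in PD30 and 42.7, 41.1 and 44.4 in N+PD30, with all libraries that kept the drug above all others. Both DNAJC16 (log2 fold change 0.74 ± 0.11, adjusted p = 0.000557) and DNAJC18 (log2 fold change 0.56 ± 0.08, adjusted p = 0.000429) rose in PD30 against DMSO. DNAJC3, which inhibits the kinase PERK, passed in none of the 6 comparisons, with values from 0.05 in Nutlin to 0.25 in PD30. SERPINH1, the collagen chaperone HSP47, varied widely among replicates (301, 262 and 195 CPM in DMSO and 381, 255 and 167 in N+PD30). It passed only in PD30 against PD24 (log2 fold change -0.63 ± 0.20, adjusted p = 0.0438), a call lost without PD24 replicate 1 or 2 or PD30 replicate 1 or 3 (adjusted p = 0.102 to 0.139).

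Among the mitochondrial chaperones the largest changes were those of DNAJC30 and HSPD1. Of 8 tested, 1 rose and 2 fell in Nutlin (12.5% and 25%, beside 26.6% and 28.0% of all genes). In PD24 1 rose and none fell (12.5% and 0%, beside 17.5% and 20.8%). In PD30 against DMSO 1 rose and 2 fell (12.5% and 25%, beside 22.9% and 25.4%). In PD30 against PD24 2 were lower (25%, beside 12.9%). In N+PD30 against Nutlin 2 rose and 3 fell (25% and 37.5%, beside 24.3% and 24.7%). In N+PD24 against Nutlin none passed with limma (beside 17.6% and 17.8%). With the replicate block 2 rose there, where 27.7% of all genes were called higher. The 2 lower in Nutlin became 1 without DMSO replicate 2 or 3 or Nutlin replicate 2 or 3, and the 1 higher became 2 without Nutlin replicate 3 and none under total counts. The 2 lower in PD30 became 1 without DMSO replicate 2 or 3 or PD30 replicate 1. The 3 lower in N+PD30 became 2 without Nutlin replicate 1 or 2 or N+PD30 replicate 2 or 3. HSPD1 (HSP60) held 843, 930.3 and 865 CPM in DMSO, 937, 1005 and 797 in Nutlin and 913, 854 and 961 in PD24. HSPD1 libraries held 699, 682 and 603 in PD30, 906, 870.1 and 804 in N+PD24 and 610.1, 553 and 475 in N+PD30. All libraries with the drug kept lay below all others. HSPD1 fell in PD30 (log2 fold change -0.43 ± 0.08, adjusted p = 0.00258), in PD30 against PD24 (log2 fold change -0.49 ± 0.10, adjusted p = 0.00651) and against Nutlin in N+PD30 (log2 fold change -0.78 ± 0.15, adjusted p = 0.00186). HSPE1 (HSP10), which is transcribed from the same region in the other direction and shares 135 exon bases with HSPD1, stood at 57.1, 67.1 and 60.4 CPM in DMSO, 84.9, 68.1 and 71.0 in Nutlin and 62.8, 57.96 and 47.1 in N+PD30. It rose in Nutlin (log2 fold change 0.41 ± 0.11, adjusted p = 0.0127), a call lost with scaling by total counts (adjusted p = 0.0567). It fell against Nutlin in N+PD30 (log2 fold change -0.45 ± 0.16, adjusted p = 0.0321), a call lost without Nutlin replicate 1 or 2 or N+PD30 replicate 2 or 3 (adjusted p = 0.0542 to 0.116). In PD30 against PD24 HSPE1 fell (log2 fold change -0.45 ± 0.13, adjusted p = 0.0382), a call lost without PD24 replicate 1 or 2 or PD30 replicate 1 or 3 (adjusted p = 0.0561 to 0.117).

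HSPA9, the mitochondrial HSP70 known as mortalin, passed in no comparison. Its libraries held 708, 850.4 and 859 CPM in DMSO, 769.7, 880.0 and 811 in Nutlin, 781, 801 and 862 in PD30 and 662, 727 and 775 in N+PD30, and its log2 fold changes lay between -0.23 and 0.15. DNAJA3, the J-protein partner of HSPA9, fell in Nutlin (log2 fold change -0.44 ± 0.10, adjusted p = 0.00377) and was higher in N+PD30 than in Nutlin (log2 fold change 0.46 ± 0.12, adjusted p = 0.00785), with 79.9, 84.3 and 87.3 CPM in DMSO, 50.4, 58.2 and 61.6 in Nutlin and 77.0, 81.6 and 82.3 in N+PD30. DNAJC30, an inner-membrane J-protein, was raised wherever PD0332991 was given without Nutlin or kept with it. It stood at 13.1, 12.4 and 11.3 CPM in DMSO, 9.73, 11.5 and 10.9 in Nutlin and 21.5, 26.6 and 20.1 in PD24. DNAJC30 libraries held 19.9, 23.9 and 18.2 in PD30, 12.1, 11.6 and 10.7 in N+PD24 and 23.1, 26.5 and 19.8 in N+PD30. PD24 (log2 fold change 0.91 ± 0.15, adjusted p = 0.00172), PD30 (log2 fold change 0.74 ± 0.13, adjusted p = 0.00163) and N+PD30 relative to Nutlin (log2 fold change 1.07 ± 0.17, adjusted p = 0.000402) passed. N+PD24 against Nutlin did not (log2 fold change 0.15 ± 0.13, adjusted p = 0.409).

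The 2 regulators moved apart from each other. HSF1 held 66.7, 57.0 and 43.0 CPM in DMSO, 35.4, 55.0 and 49.4 in Nutlin and 74.4, 107 and 61.9 in PD24. HSF1 libraries held 57.3, 71.0 and 69.7 in PD30, 41.6, 63.7 and 67.7 in N+PD24 and 89.9, 94.3 and 96.0 in N+PD30. It passed against Nutlin in N+PD30 (log2 fold change 0.96 ± 0.16, adjusted p = 0.000612), where it rose and 9 inducible members fell, and all N+PD30 libraries lay above all Nutlin libraries. In Nutlin, PD24 and PD30 against DMSO it gave -0.13, 0.57 and 0.23 (adjusted p = 0.58, 0.0757 and 0.253), and in N+PD24 against Nutlin 0.37 (adjusted p = 0.188, and 0.0012 with the replicate block). HSF2 stood at 32.1, 37.6 and 42.0 CPM in DMSO, 20.2, 20.1 and 19.6 in Nutlin and 17.9, 18.3 and 21.9 in PD24. HSF2 libraries held 24.1, 25.1 and 27.1 in PD30, 9.92, 10.2 and 10.3 in N+PD24 and 12.6, 15.5 and 18.3 in N+PD30. Every treated library lay below every DMSO library for HSF2. It fell in Nutlin (log2 fold change -0.77 ± 0.12, adjusted p = 0.000469), PD24 (log2 fold change -0.92 ± 0.13, adjusted p = 0.000846), PD30 (log2 fold change -0.56 ± 0.11, adjusted p = 0.00296) and N+PD24 against Nutlin (log2 fold change -0.85 ± 0.11, adjusted p = 0.000485). The fall against Nutlin in N+PD30 (log2 fold change -0.41 ± 0.15, adjusted p = 0.0438) was lost without Nutlin replicate 1, 2 or 3 or N+PD30 replicate 1 or 2 (adjusted p = 0.0672 to 0.124), by DESeq2 (adjusted p = 0.0505), with scaling by total counts (adjusted p = 0.0868), without the filter on low values (adjusted p = 0.0671) and with the replicate block (adjusted p = 0.0596). PD30 against PD24 gave 0.36 for HSF2 (adjusted p = 0.0616, and 0.0174 with the replicate block). HSF1 protein and its activity were not measured in these libraries. DGAT1 on the opposite strand shares 137 exon bases with HSF1.

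**Figure D4:**
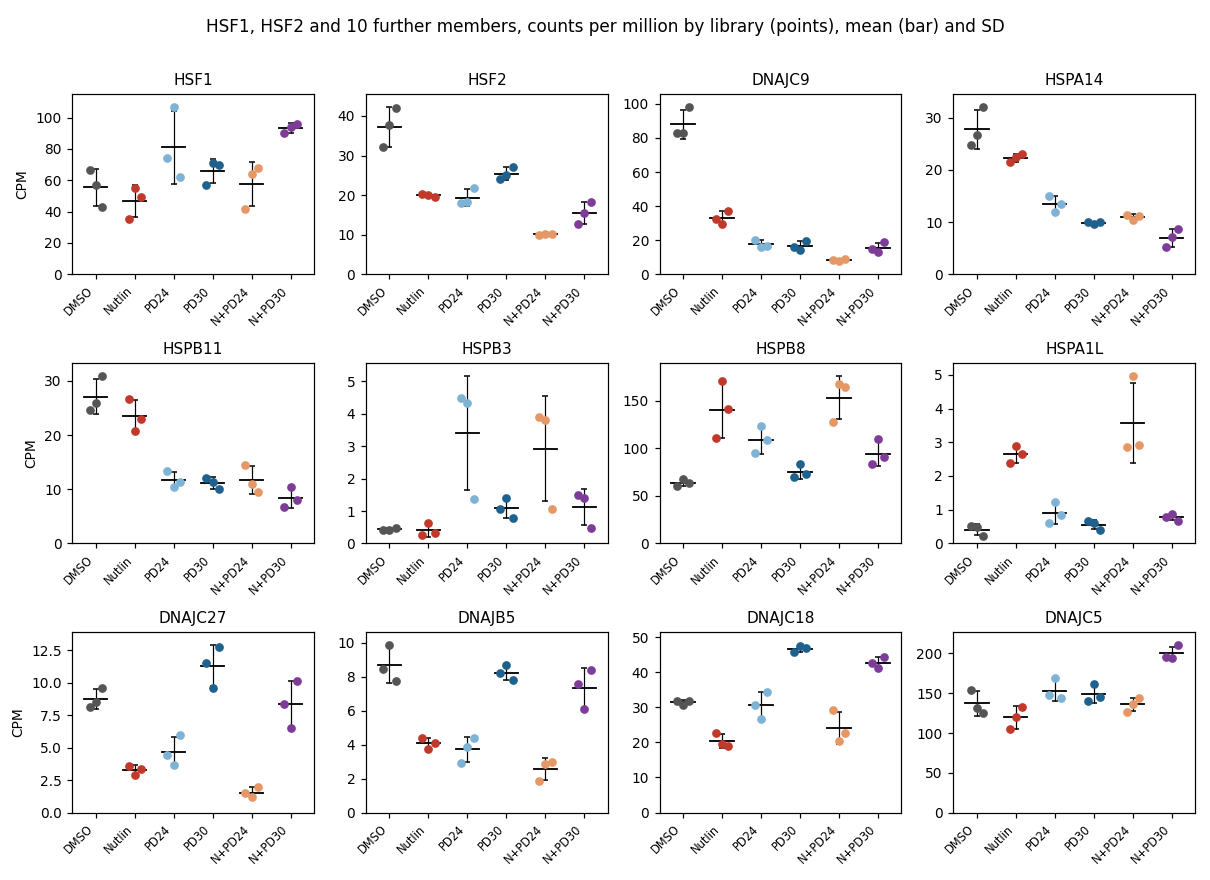
CPM (y axis, from 0) of HSF1, HSF2 and 10 further members in 18 libraries (points) of 6 groups (x axis), with the mean as a bar and the SD as a whisker. HSF2 and DNAJC9 are below DMSO in every treated library, HSPB11 and HSPA14 are lower in all groups that received PD0332991, and DNAJC27 and DNAJB5 are below DMSO in all libraries of Nutlin, PD24 and N+PD24.

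Several remaining members had large changes. HSPB11, also known as IFT25 and a part of intraflagellar transport rather than a heat-induced chaperone, held 24.7, 25.8 and 30.8 CPM in DMSO, 26.7, 20.7 and 22.9 in Nutlin and 13.3, 10.4 and 11.3 in PD24. HSPB11 libraries held 12.1, 11.4 and 10.0 in PD30, 14.5, 10.96 and 9.50 in N+PD24 and 6.69, 10.4 and 8.09 in N+PD30. All libraries that received PD0332991 lay below all DMSO and Nutlin libraries. HSPB11 fell in PD24 (log2 fold change -1.19 ± 0.14, adjusted p = 0.000254), PD30 (log2 fold change -1.29 ± 0.13, adjusted p = 3.28e-05), N+PD24 (log2 fold change -0.89 ± 0.18, adjusted p = 0.00412) and N+PD30 (log2 fold change -1.50 ± 0.19, adjusted p = 9.8e-05) and not in Nutlin (log2 fold change -0.08 ± 0.13, adjusted p = 0.619). HSPB3, a small heat shock protein of muscle, rose from 0.424, 0.416 and 0.485 CPM in DMSO to 4.48, 4.34 and 1.37 in PD24 and 1.07, 1.39 and 0.795 in PD30 (log2 fold change 2.94 ± 0.48, adjusted p = 0.00151 and log2 fold change 1.28 ± 0.29, adjusted p = 0.00562). The N+PD24 libraries held 3.89, 3.82 and 1.05 CPM against 0.262, 0.633 and 0.332 in Nutlin (log2 fold change 1.42 ± 0.31, adjusted p = 0.00694), and replicate 3 was the lowest in all 4 groups that received PD0332991. PD30 was lower than PD24 (log2 fold change -1.66 ± 0.44, adjusted p = 0.0242), a call lost without PD24 replicate 1 or 2 or PD30 replicate 1 or 3 (adjusted p = 0.0578 to 0.0918). The rise against Nutlin in N+PD30 (log2 fold change 1.40 ± 0.48, adjusted p = 0.0331) was lost without Nutlin replicate 1 or 3 or N+PD30 replicate 1 or 2 (adjusted p = 0.0779 to 0.151). HSPB3 rests on 8 to 141 counts per library, and in both combinations it passed the low-value filter through the combination's libraries alone.

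HSPB8, the small heat shock protein that works with BAG3, rose in Nutlin (log2 fold change 1.27 ± 0.15, adjusted p = 7.7e-05) and PD24 (log2 fold change 0.80 ± 0.12, adjusted p = 0.00114), with 60.3, 67.8 and 63.1 CPM in DMSO, 110.2, 170.3 and 141 in Nutlin, 94.5, 123 and 109 in PD24 and 83.4, 109.5 and 90.4 in N+PD30. Its fall against Nutlin in N+PD30 (log2 fold change -0.61 ± 0.17, adjusted p = 0.0128) was lost without Nutlin replicate 2 (adjusted p = 0.0703). PD30 was lower than PD24 (log2 fold change -0.57 ± 0.13, adjusted p = 0.015), a call lost without PD30 replicate 1 or 3 (adjusted p = 0.0569 to 0.066). HSPA1L, an HSP70 next to HSPA1A and HSPA1B on chromosome 6, rose in Nutlin (log2 fold change 2.81 ± 0.29, adjusted p = 3.64e-05) from 0.515, 0.485 and 0.226 to 2.39, 2.90 and 2.65 CPM and fell against Nutlin in N+PD30 (log2 fold change -1.79 ± 0.25, adjusted p = 0.000233), where it held 0.787, 0.874 and 0.678. Its rise in PD24 (log2 fold change 1.12 ± 0.39, adjusted p = 0.0477) was lost without DMSO replicate 1, 2 or 3 or PD24 replicate 2 or 3 (adjusted p = 0.063 to 0.145) and by DESeq2 (adjusted p = 0.0747). In Nutlin and in PD24 HSPA1L passed the low-value filter through the treated libraries alone.

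DNAJC27 and DNAJB5 were lower with the drug removed than with it kept. DNAJC27, a Rab-like GTPase with a J domain, held 8.12, 8.50 and 9.63 CPM in DMSO, 3.57, 2.90 and 3.39 in Nutlin and 4.41, 3.67 and 5.97 in PD24. DNAJC27 libraries held 11.5, 9.62 and 12.7 in PD30, 1.52, 1.16 and 1.95 in N+PD24 and 8.34, 6.52 and 10.2 in N+PD30. It fell in Nutlin (log2 fold change -1.29 ± 0.16, adjusted p = 9.21e-05), PD24 (log2 fold change -0.87 ± 0.18, adjusted p = 0.00579) and N+PD24 against Nutlin (log2 fold change -0.71 ± 0.15, adjusted p = 0.00495), and was higher in PD30 than in PD24 (log2 fold change 1.22 ± 0.19, adjusted p = 0.00244) and in N+PD30 than in Nutlin (log2 fold change 1.29 ± 0.21, adjusted p = 0.000475). Its antisense row DNAJC27-AS1, which shares 224 exon bases with it, rose in Nutlin (log2 fold change 0.99 ± 0.21, adjusted p = 0.00263). The rise of DNAJC27-AS1 in PD30 (log2 fold change 0.73 ± 0.19, adjusted p = 0.0118) was lost without DMSO replicate 2 (adjusted p = 0.0556). DNAJB5 gave -0.96 in Nutlin, -1.19 in PD24, 1.10 in PD30 against PD24 and 0.79 in N+PD30 against Nutlin (adjusted p = 0.000594, 0.00127, 0.00294 and 0.00502). Its libraries held 2.92, 3.88 and 4.40 CPM in PD24 and 8.23, 8.68 and 7.84 in PD30, without overlap. The fall of DNAJB5 in N+PD24 against Nutlin (log2 fold change -0.47 ± 0.15, adjusted p = 0.0375) was lost without Nutlin replicate 1, 2 or 3 or N+PD24 replicate 1 or 2 (adjusted p = 0.0514 to 0.1), by DESeq2 (adjusted p = 0.056) and without the filter on low values (adjusted p = 0.0624). DNAJC28 fell in Nutlin (log2 fold change -1.12 ± 0.28, adjusted p = 0.00761), DNAJC4 rose in PD30 (log2 fold change 0.66 ± 0.18, adjusted p = 0.0119) and N+PD30 (log2 fold change 0.78 ± 0.15, adjusted p = 0.00151), and DNAJC6, the auxilin that uncoats clathrin vesicles, was higher in PD30 than in PD24 (log2 fold change 0.90 ± 0.16, adjusted p = 0.00368). DNAJC14 fell in Nutlin (log2 fold change -0.48 ± 0.08, adjusted p = 0.000919), and a protein-coding gene on the same strand shares 973 exon bases with it. DNAJC12 rose in N+PD24 against Nutlin (log2 fold change 0.46 ± 0.13, adjusted p = 0.0191), a call lost without Nutlin replicate 2 or 3 or N+PD24 replicate 1 or 2 (adjusted p = 0.0515 to 0.0826) and without the filter on low values (adjusted p = 0.0604). Its fall in Nutlin against DMSO (log2 fold change -0.49 ± 0.18, adjusted p = 0.0437) was lost without DMSO replicate 2 or 3 or Nutlin replicate 1, 2 or 3 (adjusted p = 0.0538 to 0.173), by DESeq2 (adjusted p = 0.091) and with the replicate block (adjusted p = 0.0513).

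Whether the response to Nutlin itself changed under PD30 was tested as an interaction over the DMSO, Nutlin, PD30 and N+PD30 libraries. Of 71 members, 6 had a lower response and 8 a higher one, where 7.03% and 12.8% of all genes were called, and 2 of the lower and 1 of the higher members exceeded 1 on the log2 scale (4.94% and 5.28% of all genes). A higher response here includes a smaller fall under Nutlin. Of 11 inducible members, HSPH1 passed, with a lower response (log2 fold change -0.65 ± 0.17, adjusted p = 0.0171), and the class median was -0.42 beside 0.06 for all genes. HSPA6, HSPA1A, HSPA1B, HSP90AA1, BAG3 and DNAJA1 gave -0.93, -1.24, -0.47, -0.36, -0.42 and -0.24 and did not pass (adjusted p = 0.287, 0.1, 0.212, 0.0913, 0.103 and 0.332). HSPA8 gave 0.02 ± 0.19 and HSPB1 0.04 ± 0.26 (SE). The inducible count became 3 by DESeq2, 3 without Nutlin replicate 3 and 2 without N+PD30 replicate 3.

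**Figure D5:**
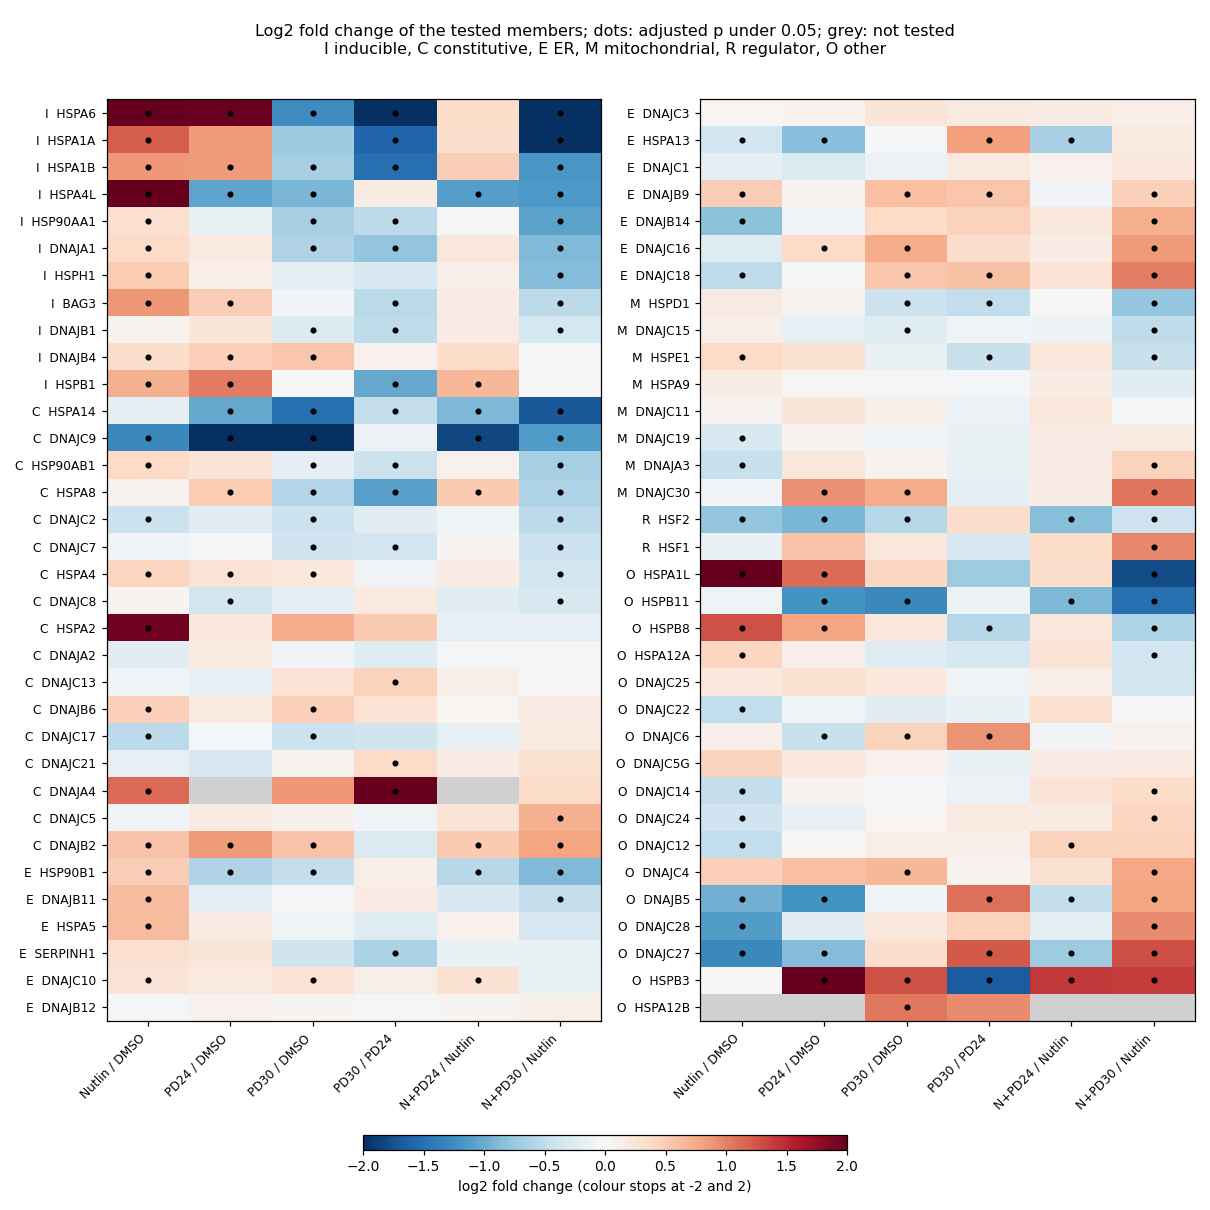
Log2 fold change (colour, from -2 to 2) of 68 members with a test, without pseudogene and antisense rows, in 6 comparisons (columns), with a dot for an adjusted p under 0.05 and grey for not tested. In the first 11 rows, the inducible class, the Nutlin column has a dot in 10 rows, DNAJB1 being the exception, and the N+PD30 column is blue in 9 rows with a dot, while rows of the ER, mitochondrial and other classes hold both colours.

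Folding factors outside the rule were read from a list of 48 genes (among them the TRiC and prefoldin subunits, HSP90 and HSP70 cochaperones, ER and mitochondrial folding enzymes). In Nutlin 17 rose and 6 fell (35.4% and 12.5%, beside 26.6% and 28.0% of all genes, median 0.22). In PD24 6 rose and 7 fell (12.5% and 14.6%, beside 17.5% and 20.8%), and in PD30 against DMSO 8 rose and 17 fell (16.7% and 35.4%, beside 22.9% and 25.4%). In PD30 against PD24 2 were higher and 12 lower (4.17% and 25%, beside 12.2% and 12.9%). In N+PD30 against Nutlin 7 rose and 20 fell (14.6% and 41.7%, beside 24.3% and 24.7%, median -0.20), and in N+PD24 against Nutlin 5 rose and 5 fell (10.4% each, beside 17.6% and 17.8%). STIP1, which hands clients from HSP70 to HSP90, rose in Nutlin (log2 fold change 0.49 ± 0.11, adjusted p = 0.00443) and fell in N+PD30 (log2 fold change -0.81 ± 0.15, adjusted p = 0.00107). The HSP90 cochaperone PTGES3 fell in N+PD30 (log2 fold change -1.13 ± 0.13, adjusted p = 4.9e-05) and in PD30 (log2 fold change -0.77 ± 0.07, adjusted p = 1.92e-05). Of the 8 TRiC subunits 6 fell in N+PD30 against Nutlin, among them TCP1, CCT4, CCT5 and CCT6A, with -0.83, -0.77, -0.81 and -0.69 (adjusted p = 0.000775, 0.000377, 0.00127 and 0.00124). FKBP5, an HSP90 cochaperone that glucocorticoids induce, had the largest fall of the list, -2.92 in PD30 (adjusted p = 9e-07) and -2.14 in N+PD30 against Nutlin (adjusted p = 4.16e-06).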

How the data were processed

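RNA of SJSA-1 cells was sequenced in 18 libraries, 3 for each of 6 groups taken from the sample labels. According to the submitters' processing notes and the methods of the study, the authors mapped reads to hg19 with TopHat and Bowtie2 and assigned them to gene symbols with HTSeq 0.6.0 in its reverse-strand setting. Whether the library kit kept strand is not given in the sources used here, so genes that overlap on either strand cannot be told apart. The deposited tables hold raw counts for DMSO, Nutlin, PD24, PD30 and N+PD30. For N+PD24 the authors deposited a signal, counts divided by a size factor of the library, and 100.0% of its values were whole reads after division by the value of 1 read (tolerance 0.01). Tables of normalized values and a table of the authors' DESeq2 comparison of Nutlin with DMSO (base means, fold changes and p-values) were not used. A total of 28 rows carried date-like names in place of symbols. Totals ran from 12704845 to 40231041 counts a library.

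Levels are CPM, counts scaled to 1000000 by each library's own total, and levels per kb divide these by the transcript length in the GRCh37 annotation. Comparisons among count groups used edgeR 4.0.16 (TMM, filterByExpr, quasi-likelihood test) in R 4.3.3, and N+PD24 against Nutlin used limma 3.58.1 with an intensity trend on log2(TMM-scaled CPM + 1), for genes at 0.5 CPM or more in at least 3 libraries. Fold changes of that comparison are therefore on the log2(value + 1) scale, which understates changes of low genes. All p-values were adjusted by Benjamini-Hochberg over all genes tested. Nutlin against DMSO joins libraries of separate tables of raw counts. The fits were tried on simulated data with the same dispersion for every gene. Changes of 1 or more on the log2 scale were set there, and genes with few counts were left unchanged. Those data therefore do not bear on smaller changes or on members with few counts. Alternatives were DESeq2 1.42.0, total-count scaling, no filter on low values, the replicate number as a block, each library left out, a fold threshold of 1 on the log2 scale, and, for N+PD24, edgeR or DESeq2 on the recovered reads, a pseudocount of 0.25 and no trend. Deviations from group means correlated between same-numbered libraries at 0.32, 0.59 and 0.31 in PD30 against PD24 and at 0.67, 0.45 and 0.51 in N+PD24 against Nutlin. These were treated as pairs only in the replicate-block setting. Their main tests had no block, so counts and p-values not marked as from the block are unpaired. In the other comparisons at least 1 correlation was at or below 0.1. No replicates were duplicates (chi-square per gene of at least 12.2 within groups). The members and the gene lists were chosen with earlier results of these data known. Named genes were the standard members of each class, plus the 5 largest rises and 5 largest falls per comparison among members that passed, averaged at least 1 CPM and did not overlap between groups. Promoter sequences came from RefSeq on GRCh38.p14.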

Additional observations from a re-analysis of the deposited data

Results flagged for a closer look

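The response to Nutlin differed between cells kept in PD0332991 for 30 h and cells without it for 14 members, by an interaction term in edgeR's quasi-likelihood test over DMSO, Nutlin, PD30 and N+PD30. The values are the log2 response under PD30 minus the log2 response without it. Lower responses were found for HSPA1L (-2.16, adjusted p = 0.00356), HSP90AB2P (-1.38, adjusted p = 0.00131), HSPB8 (-0.80, adjusted p = 0.0195), HSPH1 (-0.65, adjusted p = 0.0171), HSPA4 (-0.54, adjusted p = 0.0218) and HSP90AB1 (-0.43, adjusted p = 0.029). Higher responses were found for DNAJA3 (0.43, adjusted p = 0.0345), DNAJC14 (0.45, adjusted p = 0.0328), DNAJC18 (0.52, adjusted p = 0.0173), DNAJC5 (0.64, adjusted p = 0.0114), HSF1 (0.77, adjusted p = 0.0447), DNAJB5 (0.93, adjusted p = 0.00877), DNAJC27 (0.98, adjusted p = 0.0114) and DNAJC9 (1.32, adjusted p = 0.000797). For DNAJA3, DNAJC14, DNAJC18, DNAJB5, DNAJC27 and DNAJC9 every Nutlin library lay below every DMSO library. Their higher response was therefore a smaller fall, or none, under PD30. For DNAJC5 and HSF1 every N+PD30 library lay above every PD30 library.

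Calls for HSPA1L, HSP90AB2P, HSPH1, DNAJC5, DNAJB5, DNAJC27 and DNAJC9 held under every alternative. That for HSPB8 was lost without PD30 replicate 2 (adjusted p = 0.0507). That for HSPA4 was lost without DMSO replicate 1 or PD30 replicate 3 (adjusted p = 0.0561 to 0.058). That for HSP90AB1 was lost without DMSO replicate 1, 2 or 3, Nutlin replicate 2, PD30 replicate 1, 2 or 3 or N+PD30 replicate 2 or 3 (adjusted p = 0.0509 to 0.0719). That for DNAJA3 was lost without DMSO replicate 2 or 3, Nutlin replicate 1 or 2, PD30 replicate 1 or 3 or N+PD30 replicate 2 (adjusted p = 0.0526 to 0.0887). That for DNAJC14 was lost without DMSO replicate 1, 2 or 3, Nutlin replicate 1, 2 or 3, PD30 replicate 1 or 3 or N+PD30 replicate 2 (adjusted p = 0.0533 to 0.114) and without the filter on low values (adjusted p = 0.0509). That for DNAJC18 was lost without Nutlin replicate 2 or PD30 replicate 1 (adjusted p = 0.05 to 0.051). That for HSF1 was lost without DMSO replicate 1 or 2, Nutlin replicate 1 or 3, PD30 replicate 1 or 3 or N+PD30 replicate 1, 2 or 3 (adjusted p = 0.0538 to 0.11). HSPA1L and the pseudogene row HSP90AB2P can share reads with close relatives, and HSPA1L rests on 7 to 183 counts a library.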

How the results depend on the processing

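Over single members and alternatives, 5135 values kept their side of the threshold, 308 lost the call and 116 gained one. The sign changed in 186 values, of which 0 belonged to a call. Requiring a log2 fold change over 1 as well left 3 lower and 8 higher in Nutlin, 5 and 5 in PD24, 4 and 2 in PD30, 6 and 3 in PD30 against PD24, 10 and 4 in N+PD30, 2 and 1 in N+PD24, and 2 and 1 in the interaction. Without the filter on low values 3 were higher in N+PD24, and by DESeq2 10 had a lower response in the interaction. EdgeR on the recovered reads gave 10 lower and 7 higher in N+PD24. Under total counts Nutlin gave 20 lower and 21 higher against 16 and 27, with the median of all genes lower by 0.13 on the log2 scale than under TMM.

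With the replicate number as a block, which the pairing allowed in 2 comparisons, 14 were higher and 22 lower in PD30 against PD24 (19.7% and 20.6% of all genes). In N+PD24 23 were higher and 11 lower (27.7% and 26.9% of all genes). In the comparisons without pairing the block gave 14 lower and 27 higher in Nutlin, 12 and 18 in PD24, 19 and 19 in PD30, 26 and 15 in N+PD30, and 8 and 8 in the interaction. There it made 2 inducible members pass in the interaction, BAG3 (adjusted p = 0.0466) beside HSPH1, and HSPA5 pass in N+PD30 against Nutlin (adjusted p = 0.0371), both with edgeR's quasi-likelihood test.

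Leaving out 1 library at a time gave 11 to 16 lower and 22 to 27 higher in Nutlin, 10 to 12 and 8 to 15 in PD24, 13 to 17 and 10 to 17 in PD30, 10 to 17 and 6 to 12 in PD30 against PD24, 17 to 27 and 10 to 17 in N+PD30, 7 to 9 and 3 to 8 in N+PD24, and 4 to 11 and 4 to 8 in the interaction. The widest shifts were N+PD30 lower at 17 without Nutlin replicate 2, N+PD30 higher at 10 without Nutlin replicate 3, PD30 against PD24 lower at 10 without PD30 replicate 1 or 3, PD24 higher at 8 without DMSO replicate 3 and 9 without DMSO replicate 2, N+PD24 higher at 3 without N+PD24 replicate 2 and 4 without Nutlin replicate 3, and the interaction at 11 lower without Nutlin replicate 3, at 4 higher without PD30 replicate 1, and at 5 higher without DMSO replicate 2, Nutlin replicate 1, Nutlin replicate 2 or PD30 replicate 3. The cause of these shifts was not tested. Precision is limited by 3 libraries a group and, for HSPA6, HSPA1A, HSPA1L and HSPB3, by few counts.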
